A study of Mus musculus with 8 samples.

Results

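The 39 genes described here encode proteins of the synaptic vesicle cycle: SNARE proteins and the factors that take them apart, calcium sensors, complexins, synapsins, proteins of the vesicle membrane, Rab3 GTPases with their priming partners, and proteins of endocytosis. They were taken as a list of symbols matched to the Ensembl identifiers of the deposited tables, and all 39 were found among 29713 genes. RNA was sequenced from 8 mouse libraries, 1 per group. Neuron and glia were preparations from C57 brain, and the 3 brain regions, cerebellum, cortex and hippocampus, were C57 tissue. The 2 mouse embryonic fibroblast (MEF) libraries, ICR MEF and OG2 MEF, were made from day 13.5 embryos of the ICR and OG2 strains. The last library carries the label R1 ESC, the name of an embryonic stem cell line, with inner cell mass as its source and 129X1 x 129S1 as its strain. No treatment was given for any library, and the age and sex of the animals and the way in which neurons and glia were obtained are not stated in the sources used.

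At a chemical synapse, vesicles filled with transmitter dock at the presynaptic membrane, are primed by assembly of a SNARE complex, and fuse when calcium binds a sensor on the vesicle. The complex is then taken apart, and the vesicle membrane is pulled back from the surface, pinched off, stripped of its coat and refilled. Many of these proteins come in families whose members are used in different parts of the brain, and most have relatives that serve membrane fusion in cells of every kind.

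Total expected counts, the read numbers that the authors' program assigned to genes, reached 5864673 in glia, the deepest library, and 2147004 in the one labelled R1 ESC, the shallowest. With 1 library per group there is no replicate check of any difference, so no p-value is given. Intervals cover counting error only. The labels were checked against marker genes. In neuron all 8 neuron markers reached 10 TPM (a transcript level adjusted for gene length and library total). In glia all 6 astrocyte markers and 4 of 5 microglia markers did, against 0 of 5 oligodendrocyte markers, 2 of which had 0 counts. All 6 fibroblast and matrix markers also reached 10 TPM in glia. They summed to 1765 TPM there, 11239 in ICR MEF and 9834 in OG2 MEF. In neuron the sum was 706, of which Thy1 made up 695, and in the brain regions it was 449 to 830. Smooth muscle markers summed to 7054 TPM in glia, against 6815 in ICR MEF and 8218 in OG2 MEF, and from 17.4 to 25 in neuron and the brain regions. In the library labelled R1 ESC 2 of 5 pluripotency markers reached 10 TPM (Pou5f1 at 20.2 and Nanog at 10.3), Sox2 stood at 4.8, and Zfp42 and Dppa5a had 0 counts. Ribosomal protein genes took 17.7% of TPM in neuron, 7.37% in glia, 4.56% to 5.59% in the brain regions, 19.9% in ICR MEF, 20.8% in OG2 MEF and 49.3% in the library labelled R1 ESC.

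Start-site windows from RefSeq (GRCm38.p6, 250 bases before to 50 after each start) were matched for 29 of the 39 genes, 40 windows in all, and 5 are printed. Syn1, Unc13a and Sh3gl2 are shown because their windows hold letters of known elements, and Stx1a and Syt2 because they were the genes farthest lower and farthest higher in cerebellum against the forebrain regions. Each is read 5′ to 3′ on the strand of its gene, and capitals mark a searched motif. The motifs were TTCAGCACC and GGACAGC, both parts of the RE1 element that the repressor REST binds, the cyclic AMP element TGACGTCA, and the TATA box TATAAA, on both strands, and the printed matches do not overlap one another.
Syn1, chrX:20920869-20921168, minus strand: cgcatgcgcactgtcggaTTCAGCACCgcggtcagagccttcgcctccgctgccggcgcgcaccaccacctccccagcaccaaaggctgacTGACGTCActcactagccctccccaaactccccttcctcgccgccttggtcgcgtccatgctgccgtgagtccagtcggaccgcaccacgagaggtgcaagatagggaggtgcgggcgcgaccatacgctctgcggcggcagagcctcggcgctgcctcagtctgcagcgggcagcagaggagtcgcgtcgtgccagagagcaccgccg
Unc13a, chr8:71671708-71672007, minus strand: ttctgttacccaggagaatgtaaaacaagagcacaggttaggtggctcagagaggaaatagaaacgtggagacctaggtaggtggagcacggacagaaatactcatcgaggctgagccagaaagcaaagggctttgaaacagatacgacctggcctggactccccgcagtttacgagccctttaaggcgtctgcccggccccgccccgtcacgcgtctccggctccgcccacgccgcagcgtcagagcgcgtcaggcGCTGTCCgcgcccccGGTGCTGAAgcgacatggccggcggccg
Sh3gl2, chr4:85205206-85205505, plus strand: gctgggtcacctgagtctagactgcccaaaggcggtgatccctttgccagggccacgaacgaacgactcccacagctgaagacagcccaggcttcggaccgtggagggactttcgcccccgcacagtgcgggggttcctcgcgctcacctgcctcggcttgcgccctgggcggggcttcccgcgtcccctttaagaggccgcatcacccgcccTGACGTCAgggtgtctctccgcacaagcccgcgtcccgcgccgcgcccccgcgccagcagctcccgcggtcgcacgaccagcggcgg
Stx1a, chr5:135023232-135023531, plus strand: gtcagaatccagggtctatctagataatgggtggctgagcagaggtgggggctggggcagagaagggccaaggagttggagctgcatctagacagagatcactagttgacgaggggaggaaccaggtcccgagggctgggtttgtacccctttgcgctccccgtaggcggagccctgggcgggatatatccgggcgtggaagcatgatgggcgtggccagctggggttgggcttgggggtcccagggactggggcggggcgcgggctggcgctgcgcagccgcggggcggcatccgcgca
Syt2, chr1:134646362-134646661, plus strand, the upstream one of 2 windows: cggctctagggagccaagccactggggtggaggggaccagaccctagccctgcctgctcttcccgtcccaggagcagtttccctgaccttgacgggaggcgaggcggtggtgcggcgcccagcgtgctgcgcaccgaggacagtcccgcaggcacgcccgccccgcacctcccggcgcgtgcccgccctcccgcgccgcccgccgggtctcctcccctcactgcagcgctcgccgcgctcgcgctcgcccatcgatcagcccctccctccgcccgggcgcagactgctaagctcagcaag
In the Syn1 window TTCAGCACC lay 232 bases and TGACGTCA 159 bases before the start. In Unc13a both RE1 parts lay past the start on the opposite strand, GGACAGC from base 7 and TTCAGCACC from base 22. TTCAGCACC occurred in 2 of the 40 windows (5%), against 0.371% of all 32851 windows, and GGACAGC in 3 (7.5%, in Unc13a and Rph3a) against 6.56%. TGACGTCA occurred in 2 (5%, in Sh3gl2 and Syn1) against 1.79%, and TATAAA in 3 (7.5%, in Rab3b and Sv2b) against 13.6%. The median number of CpG dinucleotides per window was 16.5 for the 40 windows, 20 for windows of genes that reached 10 TPM in any library and 7 for all windows. A match of letters is a description and does not show a site in use.

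The genes together made up 0.692% of all TPM in neuron and 0.0608% in glia. They made up 1.29% in cerebellum, 1.51% in cortex and 1.5% in hippocampus, against 0.0262% in ICR MEF, 0.0261% in OG2 MEF and 0.018% in the library labelled R1 ESC. In neuron 33 of the 39 reached 10 TPM, in glia 10, in cerebellum 34, in cortex 39, in hippocampus 36, in ICR MEF 6, in OG2 MEF 7 and in the library labelled R1 ESC 3. The most abundant of them was synaptophysin (Syp) in neuron at 906 TPM, Syt11 in glia at 225, Snap25 in the brain regions, and Bin1 in the fibroblasts and in the library labelled R1 ESC. A gene at 0 counts may still be present below the level that 3 counts stand for, which on 2000 bases is 0.461 to 0.943 TPM over the libraries.

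**Figure D1:**
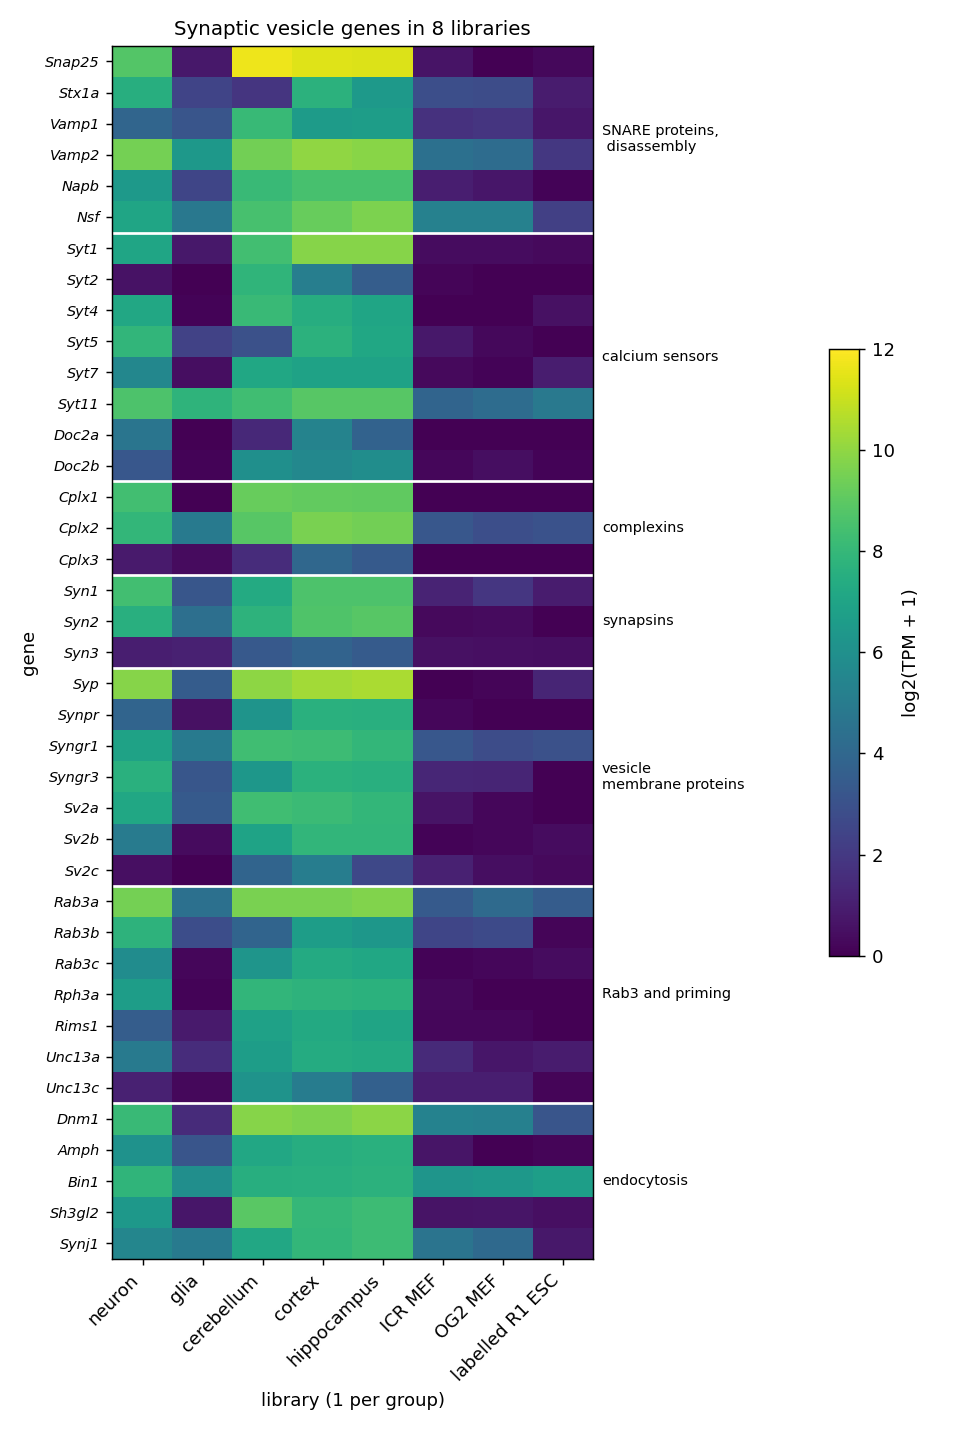
Level of the 39 genes as log2(TPM + 1), 1 column per library and 1 row per gene, grouped by role with white lines between roles. Most rows are bright in neuron and the 3 brain regions and dark in glia, the fibroblasts and the library labelled R1 ESC; Syt11, Bin1, Nsf, Synj1 and Vamp2 keep some colour outside the brain regions, and Stx1a and Syt5 are dark in cerebellum.

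Among the SNARE genes, Snap25 (ENSMUSG00000027273, chromosome 2, 136713453 to 136782428, mm10) encodes the SNARE protein of the presynaptic membrane that contributes a pair of helices to the complex. It had 446 TPM in neuron, 0.73 in glia, 3295 in cerebellum, 2748 in cortex, 2634 in hippocampus, 0.56 in ICR MEF, 0 in OG2 MEF and 0.18 in the library labelled R1 ESC. In the brain regions it ranked 6, 10 and 14 among all genes by TPM (cerebellum, cortex and hippocampus), and its neuron level lay between those and the near-zero level of the other libraries. Its partner syntaxin 1A, Stx1a (ENSMUSG00000007207, chromosome 5, 135023482 to 135051100), had 182 TPM in neuron, 4.43 in glia, 2.64 in cerebellum, 210 in cortex, 88.6 in hippocampus, 6.43 in ICR MEF, 5.81 in OG2 MEF and 0.86 in the library labelled R1 ESC. Cerebellum was thus below glia and both fibroblast libraries, on 12 counts.

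The synaptobrevins Vamp1 and Vamp2 are the SNARE proteins of the vesicle itself. Vamp2 had 722 TPM in neuron, 84.3 in glia, 695 in cerebellum, 1036 in cortex, 930 in hippocampus, 20.4 in ICR MEF, 17.8 in OG2 MEF and 2.91 in the library labelled R1 ESC. Vamp1 had 13.9 TPM in neuron, 7.82 in glia, 269 in cerebellum, 95.3 in cortex, 101 in hippocampus, 2.26 in ICR MEF, 2.57 in OG2 MEF and 0.68 in the library labelled R1 ESC. The pair thus ordered the libraries differently: Vamp2 was at 695 TPM or more in neuron and all brain regions, whereas Vamp1 in neuron was closer to glia than to any brain region. Nsf, the ATPase that takes spent SNARE complexes apart, and Napb, the brain form of its adaptor SNAP, were at 133 and 85 TPM in neuron, 26.7 and 4.67 in glia, and from 281 to 794 over the brain regions. Nsf, which every cell uses, remained at 37.9 and 38.2 TPM in ICR MEF and OG2 MEF.

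Of the calcium sensors, Syt1 (ENSMUSG00000035864, chromosome 10, 108497650 to 109010982) triggers fast synchronous release. Syt1 had 131 TPM in neuron, 0.7 in glia, 326 in cerebellum, 902 in cortex, 912 in hippocampus, 0.32 in ICR MEF, 0.33 in OG2 MEF and 0.23 in the library labelled R1 ESC. Syt2 (ENSMUSG00000026452, chromosome 1, 134646677 to 134762593), its relative with the same role at other synapses, had 0.5 TPM in neuron, 0 in glia, 229 in cerebellum, 33.7 in cortex, 10.7 in hippocampus, 0.11 in ICR MEF and 0 in OG2 MEF and the library labelled R1 ESC. Syt2 was therefore highest in the region where Syt1 was lowest of the 3, and it was close to absent from neuron, with 8 counts there. Syt5, another calcium-binding synaptotagmin, stood at 240 TPM in neuron, 4.09 in glia, 6.87 in cerebellum, 210 in cortex, 142 in hippocampus and at most 0.69 elsewhere, with cerebellum again near glia. Syt7, a slower sensor of higher calcium affinity, had 46.4 TPM in neuron, 0.34 in glia and 119 to 143 in the brain regions.

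Syt4 and Syt11 are synaptotagmins that lack classical calcium binding at one of their domains. Syt4 had 144 TPM in neuron, 0.1 in glia and 133 to 283 in the brain regions. Syt11 had 394 TPM in neuron, 225 in glia, 319 in cerebellum, 469 in cortex, 477 in hippocampus, 13.7 in ICR MEF, 17.7 in OG2 MEF and 27.5 in the library labelled R1 ESC. Glia thus stood near neuron for Syt11 and far below it for the other synaptotagmins above 10 TPM in neuron. Doc2a and Doc2b are soluble high-affinity sensors linked to spontaneous and late release. Doc2b had 8.48 TPM in neuron, 0.08 in glia, 62 in cerebellum, 47 in cortex, 58.4 in hippocampus, 0.17 in ICR MEF, 0.37 in OG2 MEF and 0.08 in the library labelled R1 ESC. Doc2a had 24 TPM in neuron, 1.57 in cerebellum, 40.4 in cortex and 12.8 in hippocampus, and 0 in glia, both fibroblast libraries and the library labelled R1 ESC. The Doc2a level in cerebellum rested on 1 count and an effective length of 265 bases, against 1751 in cortex, and its exons share up to 815 bases with Ino80e on the opposite strand, so it is uncertain.

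Complexins bind the assembled SNARE complex and hold it ready for calcium. Cplx1 (ENSMUSG00000033615, chromosome 5, 108518554 to 108550024) had 333 TPM in neuron, 0 in glia, 600 in cerebellum, 558 in cortex, 539 in hippocampus, and 0 in both fibroblast libraries and the library labelled R1 ESC. It was the only one of the 39 genes other than Doc2a and Cplx3 with 0 counts in all 3 of the non-neural libraries, and unlike them it stood at 333 TPM or more in neuron and every brain region. Cplx2 had 247 TPM in neuron, 29.4 in glia, 472 in cerebellum, 760 in cortex, 706 in hippocampus, 8.45 in ICR MEF, 6.46 in OG2 MEF and 7.13 in the library labelled R1 ESC. Cplx3, known from ribbon synapses of the retina, reached 15.1 TPM in cortex and 9.5 in hippocampus and was at or below 1.88 in the other libraries.

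Synapsins coat vesicles and hold the reserve pool together. Syn1 (ENSMUSG00000037217, chromosome X, 20860511 to 20921004), whose window with both an RE1 part and a cyclic AMP element is printed above, had 326 TPM in neuron, 8.22 in glia, 163 in cerebellum, 400 in cortex, 397 in hippocampus, 1.31 in ICR MEF, 2.74 in OG2 MEF and 0.89 in the library labelled R1 ESC. Neuron lay within the range of the brain regions. Syn2 had 191 TPM in neuron, 20.2 in glia, 218 in cerebellum, 407 in cortex, 464 in hippocampus, 0.23 in ICR MEF, 0.29 in OG2 MEF and 0 in the library labelled R1 ESC. Syn3 was scarce, at 1.03 TPM in neuron, 1.16 in glia and 9.18 to 13.1 in the brain regions. Its exons overlap those of Timp3 on the opposite strand by up to 1733 bases, and since the strandedness of the libraries is not given, reads of the 2 genes cannot be told apart there.

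In the vesicle membrane, Syp (ENSMUSG00000031144, chromosome X, 7638471 to 7653256) is one of the most abundant proteins by number. It had 906 TPM in neuron, 10.1 in glia, 985 in cerebellum, 1291 in cortex, 1421 in hippocampus, 0 in ICR MEF, 0.13 in OG2 MEF and 1.35 in the library labelled R1 ESC. Neuron thus came close to cerebellum for Syp, unlike for Snap25. Synaptoporin (Synpr), a relative of Syp, had 13.8 TPM in neuron, 0.45 in glia, 72.3 in cerebellum, 195 in cortex and 186 in hippocampus. The synaptogyrins are tetraspan proteins of the same membrane. Syngr1 had 120 TPM in neuron, 30 in glia, 317 in cerebellum, 298 in cortex, 246 in hippocampus, 8.45 in ICR MEF, 5.87 in OG2 MEF and 6.76 in the library labelled R1 ESC. Syngr3 had 194 TPM in neuron, 8.36 in glia, 81.7 in cerebellum, 204 in cortex, 192 in hippocampus, 1.41 in ICR MEF, 1.38 in OG2 MEF and 0 in the library labelled R1 ESC. Cerebellum was the highest library for Syngr1 and the lowest brain region for Syngr3.

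The SV2 proteins are transporter-like glycoproteins of the vesicle, and SV2A is the binding site of the drug levetiracetam. Sv2a (ENSMUSG00000038486, chromosome 3, 96181151 to 96195521) had 142 TPM in neuron, 9.41 in glia, 318 in cerebellum, 287 in cortex, 248 in hippocampus, 0.54 in ICR MEF, 0.15 in OG2 MEF and 0 in the library labelled R1 ESC. Sv2b had 30.8 TPM in neuron, 0.28 in glia, 123 in cerebellum, 240 in cortex, 240 in hippocampus, 0.07 in ICR MEF, 0.17 in OG2 MEF and 0.32 in the library labelled R1 ESC. Sv2c, a receptor of botulinum toxin A, was found mainly in cortex at 33.4 TPM, with 13.5 in cerebellum, 4.99 in hippocampus and at most 1.18 elsewhere.

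Rab3 GTPases sit on vesicles and recruit the docking and priming proteins. Rab3a (ENSMUSG00000031840, chromosome 8, 70754679 to 70758677) had 718 TPM in neuron, 20.7 in glia, 761 in cerebellum, 775 in cortex, 834 in hippocampus, 9.4 in ICR MEF, 16.6 in OG2 MEF and 10.4 in the library labelled R1 ESC. Its level in neuron was close to that in all 3 brain regions. Rab3c had 56.3 TPM in neuron, 0.17 in glia, 76.1 in cerebellum, 163 in cortex, 143 in hippocampus, 0.09 in ICR MEF, 0.15 in OG2 MEF and 0.33 in the library labelled R1 ESC. Rab3b had 217 TPM in neuron, 6.18 in glia, 13.8 in cerebellum, 103 in cortex, 81.5 in hippocampus, 4.77 in ICR MEF, 5.49 in OG2 MEF and 0.11 in the library labelled R1 ESC. Cerebellum lay nearer to glia than to the forebrain regions for Rab3b.

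Of the effectors, rabphilin (Rph3a) binds Rab3 on the vesicle and had 101 TPM in neuron, 0.09 in glia and 204 to 241 in the brain regions. Rims1 is a scaffold of the active zone that joins Rab3, Munc13 and calcium channels, and had 10.7 TPM in neuron, 0.81 in glia, 117 in cerebellum, 156 in cortex and 127 in hippocampus. Munc13 proteins open syntaxin and so prime vesicles. Unc13a, the gene of Munc13-1, had 30.3 TPM in neuron, 1.87 in glia, 102 in cerebellum, 168 in cortex, 153 in hippocampus, 1.71 in ICR MEF, 0.64 in OG2 MEF and 0.87 in the library labelled R1 ESC. Unc13a exons share up to 495 bases with Colgalt1 on the opposite strand. Colgalt1 was at 31.1 TPM in neuron and 41.2 to 49.3 in the brain regions, and its part in the Unc13a values was not tested. Unc13c, the gene of Munc13-3, had 1.12 TPM in neuron, 0.2 in glia, 71.5 in cerebellum, 31.4 in cortex, 12 in hippocampus, 0.99 in ICR MEF, 1.03 in OG2 MEF and 0.12 in the library labelled R1 ESC. For Unc13c neuron, with 30 counts, was at a level near that of the fibroblasts, while the 3 brain regions stood apart from one another.

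For endocytosis, dynamin 1 (Dnm1, ENSMUSG00000026825, chromosome 2, 32308471 to 32353338) is the GTPase that pinches off the new vesicle. It had 279 TPM in neuron, 1.77 in glia, 895 in cerebellum, 824 in cortex, 974 in hippocampus, 39.1 in ICR MEF, 36.5 in OG2 MEF and 7.93 in the library labelled R1 ESC. Glia lay far below both fibroblast libraries for Dnm1. Amphiphysin (Amph), which brings dynamin to the neck of the bud, had 68.9 TPM in neuron, 7.88 in glia and 147 to 198 in the brain regions. Endophilin A1 (Sh3gl2), which bends the membrane and recruits synaptojanin, had 84.2 TPM in neuron, 0.67 in glia, 479 in cerebellum, 256 in cortex and 299 in hippocampus. Synaptojanin (Synj1), the lipid phosphatase that sheds the coat, had 45.1 TPM in neuron, 29.9 in glia, 144 in cerebellum, 248 in cortex, 298 in hippocampus, 23.2 in ICR MEF and 16 in OG2 MEF. Bin1, the amphiphysin found in many tissues, had 230 TPM in neuron, 60.7 in glia, 181 in cerebellum, 186 in cortex, 211 in hippocampus, 75.5 in ICR MEF, 82.2 in OG2 MEF and 104 in the library labelled R1 ESC. Glia was the lowest library for Bin1.

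**Figure D2:**
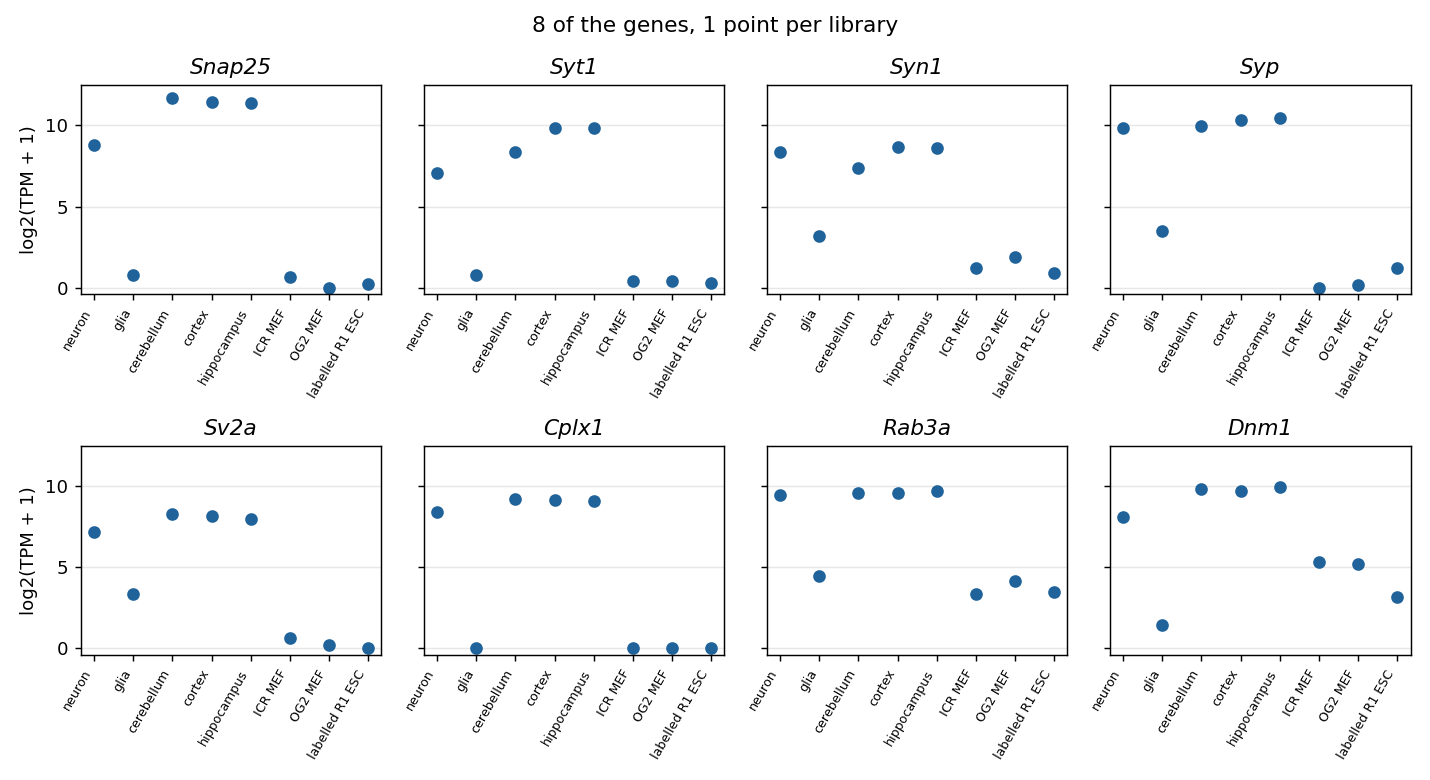
Level as log2(TPM + 1) of 8 of the genes, 1 panel per gene and 1 point per library. Syp and Rab3a stand at a similar height in neuron and the 3 brain regions, Snap25 and Syt1 stand lower in neuron than in the brain regions, and Dnm1 is lower in glia than in both fibroblast libraries.

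For the counts that follow, a gene was called higher on one side of a comparison if it had 10 TPM or more in each library there and if, after adding 1 TPM, its smallest value there was 4 times its largest value on the other side or more; lower is the converse. For each comparison the share of all tested genes that met this rule is given with the count of the 39. In bulk samples fewer cells of a type and less RNA per cell cannot be told apart. Folds below are ratios of TPM with nothing added, between the nearest libraries of the 2 sides, with exact (Clopper-Pearson) 95% intervals from the counts. The comparisons share libraries, so their counts are not independent.

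Most of the release machinery was higher in neuron than in glia: 28 of the 39 genes were higher in neuron and 0 lower, where 10.4% of 11185 tested genes were higher and 30.5% lower. Of the 39, 33 were among those tested. The higher genes were 5 of 6 SNARE and disassembly genes, 5 of 8 calcium sensors, 2 of 3 complexins, 2 of 3 synapsins, 5 of 7 vesicle membrane genes, 6 of 7 Rab3 and priming genes and 3 of 5 endocytosis genes. Cplx1 was at least 351-fold higher (glia set at 3 counts), Snap25 607-fold (237 to 2230), Syt1 188-fold (99 to 413) and Dnm1 157-fold (98.1 to 270). Syp was 90-fold higher (65.5 to 127, with effective lengths of 2427 bases in neuron and 1331 in glia), and the smallest fold was that of Nsf at 4.96 (4.36 to 5.67). The 11 genes that did not meet the rule were of several kinds. Syngr1 (120 TPM in neuron, 30 in glia) and Bin1 (230 and 60.7) lay just below the fold required, the effective length of Syngr1 being 3968 bases in neuron and 1127 in glia, whereas Syt11, Synj1 and Vamp1 differed by 1.75-fold, 1.51-fold and 1.78-fold. Doc2b stood at 8.48 TPM in neuron, below the 10 TPM asked for, and Syt2, Syn3, Sv2c, Cplx3 and Unc13c were at or below 1.16 TPM on both sides. The median log2 ratio of the 39 genes was 3.78, against -0.83 for all genes. Astrocyte markers summed to 62.1 TPM in neuron and 2645 in glia, neuron markers to 4107 in neuron and 449 in glia, with 3 of 8 neuron markers in glia at 10 TPM or more and 3 at 0 counts, and their part in these values was not tested.

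Of 12831 tested genes 13.5% were higher and 1.33% lower in the brain regions than in the 3 non-neural libraries. By the same rule 31 of the 39 genes were higher and 0 lower. Without the library labelled R1 ESC the number was 31 as well. The roles contributed 5 of 6 SNARE and disassembly genes, 6 of 8 calcium sensors, 2 of 3 complexins, 2 of 3 synapsins, 6 of 7 vesicle membrane genes, 6 of 7 Rab3 and priming genes and 4 of 5 endocytosis genes. Snap25 was 4736-fold higher (1620 to 22971) in the lowest brain region than in the highest non-neural library, Syt1 983-fold (336 to 4770) and Syp 732-fold (202 to 6043), while Synj1 was 6.2-fold (5.28 to 7.33) and Nsf 9.41-fold (8.52 to 10.4) higher. Among the genes that missed the rule, Stx1a had 2.64 TPM in cerebellum, within the range of the non-neural libraries. Syt5 and Syn3 missed the rule on the 10 TPM asked for, Rab3b and Bin1 on the fold, and Sv2c, Cplx3 and Doc2a on both. With cerebellum left out the number was 35, and it then included Stx1a, Syt5, Rab3b and Doc2a. The median log2 ratio was 6.23, against 1.30 for all genes.

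Neuron was also set against the tissue of the 3 brain regions. By the rule 0 genes were higher in neuron than in all 3 brain regions and 7 were lower, where 1.68% of 11960 tested genes were higher and 16.4% lower. The share of the 39 genes that were lower, 17.9%, thus lay near that of all genes. The median log2 ratio of the genes was -1.36, against -1.07 for all genes, so that they stood 0.28 lower than all genes did. The lower genes were Snap25 (5.91-fold, 5.66 to 6.18), Vamp1 (6.87-fold, 5.61 to 8.47), Syt2 (21.4-fold, 10.5 to 50.8), Synpr (5.23-fold, 4.2 to 6.56), Rims1 (11-fold, 9.43 to 12.9), Unc13c (10.7-fold, 7.19 to 16.3) and Doc2b (5.55-fold, 4.49 to 6.9). With a scaling that brings all genes to a common level (TMM factors of the TPM) 1 of these, Rims1, was lower, and with CPM, in which counts are scaled by depth alone, 3 were (Syt2, Rims1 and Unc13c). With cerebellum left out 13 were lower, the added ones being Syt1, Sv2b, Unc13a, Synj1, Napb and Nsf. Effective lengths of Syt2, Sv2c, Rims1, Unc13a and Doc2a differed by over 1.5-fold between these libraries, so their folds are uncertain.

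The rule was not met by 32 of the genes between neuron and the brain regions. Among these, Stx1a, Rab3b, Syt5 and Doc2a had a mean log2 level in neuron above that of the regions, by 2.16, 2.12, 1.96 and 1.14. In each of them cerebellum was the lowest region. Syngr3, Bin1 and Syn1 also stood above the regions by this measure, by 0.39, 0.26 and 0.14. For Stx1a (182 TPM in neuron, 210 in cortex) and Syt5 (240 in neuron, 210 in cortex) neuron lay close to cortex, and for Rab3b neuron at 217 TPM was above all regions, though under the fold required. Forebrain excitatory markers summed to 1794 TPM in neuron, 73.3 in cerebellum, 3245 in cortex and 4010 in hippocampus, and cerebellar granule and Purkinje markers to 74.1 in neuron, 5349 in cerebellum, 185 in cortex and 167 in hippocampus. Oligodendrocyte markers summed to 25.6 TPM in neuron and 4203 to 5627 in the brain regions. The part of these cells in the differences was not tested.

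**Figure D3:**
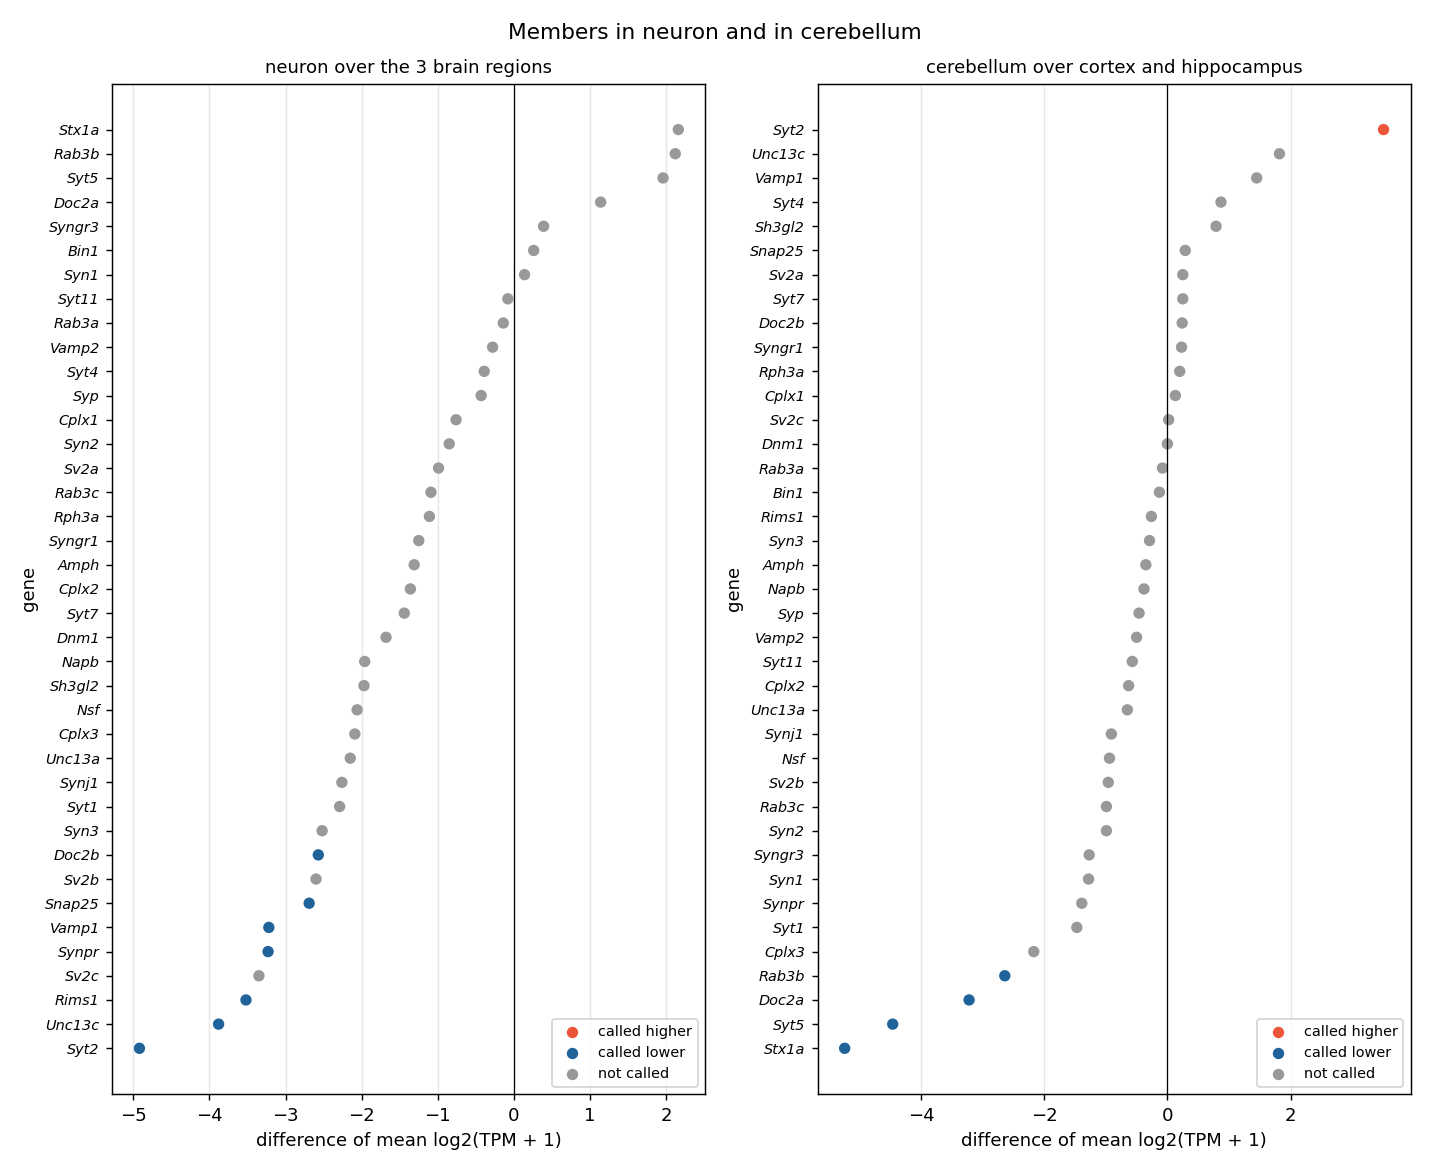
Difference of mean log2(TPM + 1) for each gene, neuron over the 3 brain regions on the left and cerebellum over cortex and hippocampus on the right, 1 point per gene, coloured where the rule for higher or lower was met. On the left 7 genes were lower and 0 higher, and on the right Syt2 was higher and Stx1a, Syt5, Doc2a and Rab3b were lower.

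Cerebellum was also compared with the forebrain regions. Against cortex and hippocampus together, 1 gene was higher and 4 were lower, where 2.25% of 11728 tested genes were higher and 3.01% lower. The share of the 39 genes that were higher, 2.56%, thus lay near that of all genes. The share that were lower was 10.3%, with Doc2a among them on 1 count. Syt2, with its 229 TPM, was 6.79-fold (6.04 to 7.66) higher than in cortex, the nearer of the forebrain regions. Stx1a was 33.6-fold (18.9 to 65.8) lower than in hippocampus, Syt5 20.7-fold (13.9 to 32.1) and Rab3b 5.9-fold (4.18 to 8.5). Doc2a was 8.19-fold lower with an interval of 1.39 to 330, on the single count named above. Vamp1 and Unc13c were the next in the upward direction without meeting the rule, and Unc13c met it with cortex left out. Cplx3 met it in the downward direction with hippocampus left out. The median log2 ratio was -0.38, against 0.11 for all genes. The windows of Stx1a and of the upstream Syt2 start printed above held none of the motifs searched, which says only that those letters are not in these windows.

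Cortex and hippocampus were separated by few of these genes. Of the 39, 1 was higher in cortex and 0 lower, where 0.832% of 11059 tested genes were higher and 0.452% lower, and the median log2 ratio was 0.07, against 0.01 for all genes. The gene was Sv2c, with 33.4 TPM in cortex against 4.99 in hippocampus, a difference of 6.69-fold (4.62 to 10). It no longer met the rule with 5 TPM added, and its effective length was 3157 bases in cortex and 4036 in hippocampus. Doc2a (40.4 TPM in cortex, 12.8 in hippocampus), Syt2 (33.7 and 10.7), Unc13c (31.4 and 12) and Stx1a (210 and 88.6) came next without meeting it. At the other end, the most negative log2 ratio was -0.40 for Nsf, at 600 TPM in cortex and 794 in hippocampus.

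Against the fibroblasts, glia could be compared for 11 of these genes, those that reached 10 TPM in any of the 3 libraries. Of the 39, 3 were higher in glia and 1 lower, where 10% of 10647 tested genes were higher and 2.92% lower. Since 11 of the 39 were among the tested genes here, the count and that share are not over like sets. Syt11, at 225 TPM in glia, 13.7 in ICR MEF and 17.7 in OG2 MEF, was 12.7-fold (11 to 14.8) higher, and Syn2 69.3-fold (23.4 to 339). The Syn2 fold rested on 3 counts in OG2 MEF. Syn2 exons share up to 90 bases with Timp4 on the opposite strand. Timp4 was at 16.8 TPM in glia and 0 in both fibroblast libraries, and its part in the Syn2 fold was not tested. Syp, at 10.1 TPM in glia, was 79-fold higher (13.3 to 3202) on 1 count in OG2 MEF, and it no longer met the rule in 4 of 7 other settings. Dnm1 was 20.6-fold lower in glia than in OG2 MEF (12.7 to 35.8), at 1.77 TPM against 39.1 in ICR MEF and 36.5 in OG2 MEF. With ICR MEF left out 6 genes were higher, with Vamp2, Syngr1 and Cplx2 added. The median log2 ratio was 0.44, against 0.42 for all genes. Smooth muscle markers, which summed to 7054 TPM in glia, were of like level in the fibroblasts, and neuron markers summed to 449 TPM in glia, 131 in ICR MEF and 128 in OG2 MEF; their part in these values was not tested.

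Within a library, the ratio of 2 related genes does not depend on how libraries are scaled, and 9 such pairs were compared. The ratio of Vamp1 to Vamp2 was 0.0192 in neuron (0.0158 to 0.0231), 0.388 in cerebellum (0.365 to 0.411), 0.092 in cortex and 0.109 in hippocampus. Syt2 stood to Syt1 as 0.00381 in neuron (0.00164 to 0.00752), 0.702 in cerebellum (0.666 to 0.739), 0.0374 in cortex and 0.0117 in hippocampus. For Unc13c and Unc13a the ratio was 0.0371 in neuron, 0.702 in cerebellum (0.652 to 0.756), 0.187 in cortex and 0.0783 in hippocampus, with the overlap of Unc13a and Colgalt1 named above. In each of these 3 pairs cerebellum had the largest ratio of the brain regions and neuron the smallest of these 4 libraries, with intervals that did not meet. Syngr3 and Syngr1 ran differently, at 1.62 in neuron (1.5 to 1.75), 0.257 in cerebellum (0.23 to 0.288), 0.686 in cortex and 0.778 in hippocampus. The complexin ratio, Cplx1 to Cplx2, was 1.35 in neuron (1.28 to 1.42), 1.27 in cerebellum (1.22 to 1.33), 0.735 in cortex (0.703 to 0.768) and 0.763 in hippocampus (0.723 to 0.806).

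In the other 4 pairs neuron had the smallest ratio of these libraries. Syn2 stood to Syn1 as 0.587 in neuron (0.555 to 0.62), 1.34 in cerebellum (1.24 to 1.44), 1.02 in cortex (0.968 to 1.07) and 1.17 in hippocampus (1.1 to 1.24). Sv2b stood to Sv2a as 0.216 in neuron, 0.387 in cerebellum, 0.838 in cortex and 0.966 in hippocampus (0.904 to 1.03). Rab3c stood to Rab3a as 0.0785 in neuron, 0.1 in cerebellum, 0.21 in cortex and 0.171 in hippocampus. In the SV2 and Rab3 pairs cerebellum came next after neuron, below both forebrain regions. Doc2b stood to Doc2a as 0.353 in neuron (0.276 to 0.451), 1.16 in cortex (0.969 to 1.4) and 4.54 in hippocampus (3.3 to 6.45), and in cerebellum the ratio rested on 1 Doc2a count. Ratios per length depend on the effective lengths, and without a length term 7 of them fell on the other side of 1 and others moved, Rab3c to Rab3a for example to 0.54 in neuron and 0.747 in cerebellum.

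As shares of the family members among the 39 genes, with other relatives left out, Syt11 made up 41.2% of the summed TPM of 6 synaptotagmins in neuron, 97.7% in glia, 24.4% in cerebellum, 24.5% in cortex and 26.6% in hippocampus. Syt1 took 13.7% in neuron, 24.9% in cerebellum, 47.1% in cortex and 50.8% in hippocampus. Of the relatives left out, Syt12 had 11 TPM and Syt17 10.7 in glia, and Syt13 had 113 and Syt12 85 in cerebellum. Syt5 took 25.1% in neuron and 0.525% in cerebellum, against 11% in cortex and 7.91% in hippocampus. The RNA shares among these 6 synaptotagmins thus differed between neuron and every brain region, as well as between cerebellum and the forebrain, with 1 library each. Among the Rab3 genes, Rab3b took 21.9% in neuron, 22.9% in glia, 1.62% in cerebellum, 9.85% in cortex and 7.7% in hippocampus.

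**Figure D4:**
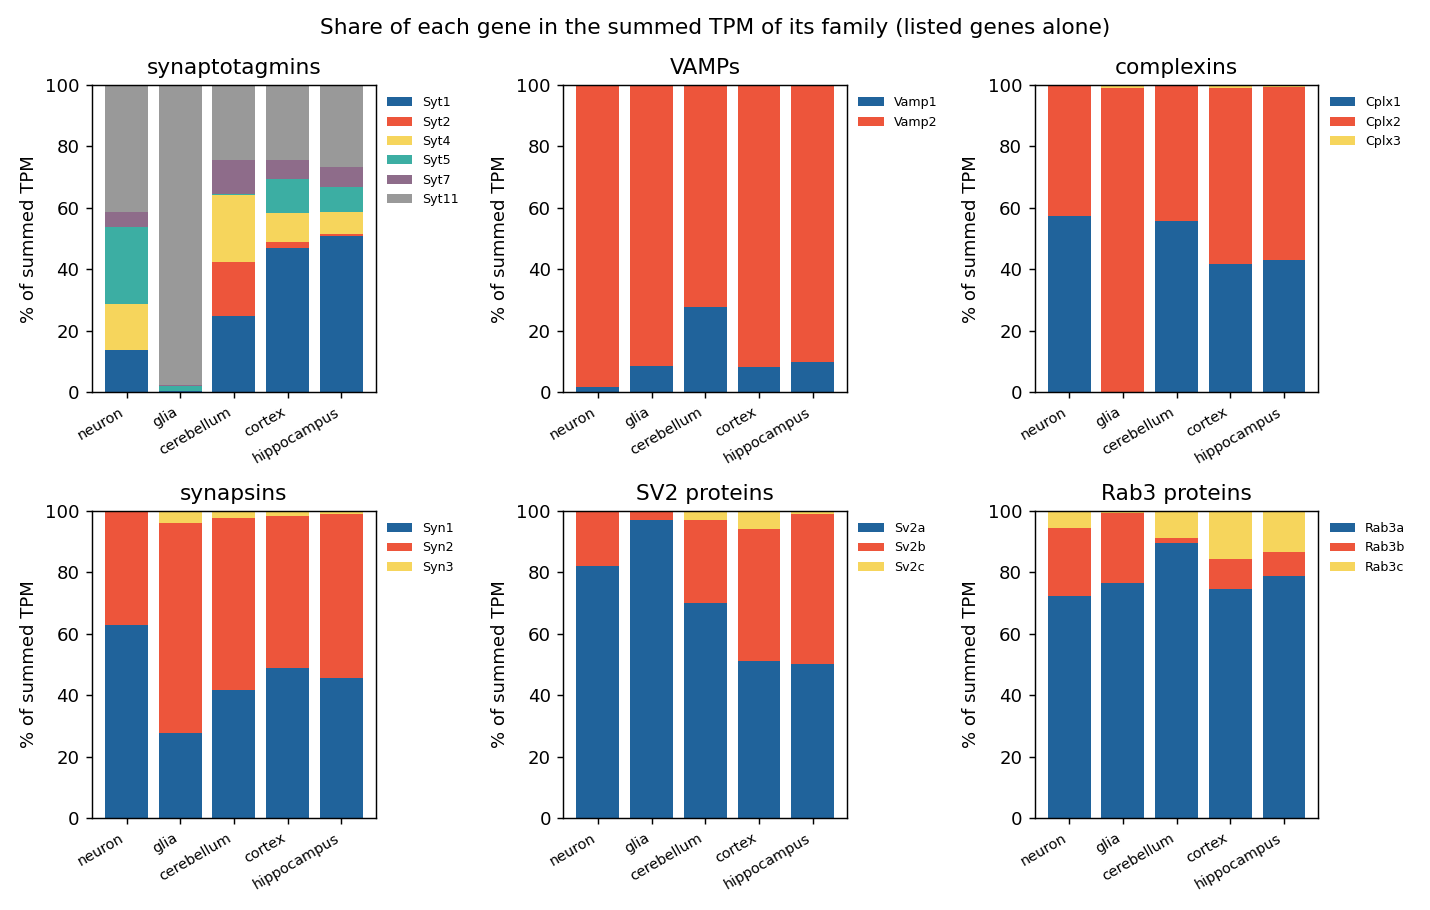
Share of each gene in the summed TPM of the members of its family among the 39 genes, as stacked bars for neuron, glia, cerebellum, cortex and hippocampus, 1 panel per family and 1 colour per gene. The Syt2 and Vamp1 segments are largest in cerebellum, the glia bar of the synaptotagmins is almost all Syt11, and the Rab3b segment is smallest in cerebellum.

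Other genes of the pathway that are not among the 39 followed in part. Of 37 further neuronal release genes, such as active zone scaffolds, calcium channels and minor synaptotagmins, 19 were higher and 2 lower in neuron than in glia, 27 were higher and 0 lower in the brain regions than in the non-neural libraries, and 1 was higher and 8 lower in neuron than in the brain regions. Of all tested genes 10.4% were higher and 30.5% lower, 13.5% higher and 1.33% lower, and 1.68% higher and 16.4% lower in the same comparisons, so the 8 lower lie near the background. Ppfia3, a liprin of the active zone, was at 429 TPM in neuron and 1.76 in glia, and it was also the 1 gene higher in neuron than in the brain regions (58.8 in cerebellum, 103 in cortex and 95.3 in hippocampus). Its counts were 1562 in neuron, 19 in glia, 605 in cerebellum, 1021 in cortex and 657 in hippocampus. The gaps in TPM are thus wider than those in counts, and the part of effective length in the Ppfia3 call was not tested. The 2 lower than in glia were Itsn1, an endocytic scaffold, at 29.2 TPM in neuron and 125 in glia, and Syt17, at 0.45 in neuron and 10.7 in glia. Cerebellum had 1 of the 37 higher (Syt9, 57.5 TPM, against 11.6 in cortex and 9.23 in hippocampus) and 4 lower, where 2.25% and 3.01% of all tested genes were, so the 1 higher lies near the background. Among the lower were Rimbp2, which links Rim proteins to calcium channels, with 3.26 TPM in cerebellum against 52.8 in cortex and 52.4 in hippocampus, and Erc2 at 13.4, 90.3 and 96.6. Between cortex and hippocampus 0 of the 37 met the rule, where 0.832% of all tested genes were higher and 0.452% lower. In glia against the fibroblasts 6 were higher and 0 lower, where the shares of all tested genes were 10% and 2.92%. Since 16 of the 37 were among the tested genes there, the counts and those shares are not over like sets.

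Relatives that serve fusion and endocytosis in many cell types were listed as well. Of 26 such genes 2 were higher and 11 lower in neuron than in glia, where 10.4% and 30.5% of all tested genes were, so both counts lie not far from the background. Those lower included Vamp8 (3.45 TPM in neuron, 93.6 in glia), Stxbp3 (1 and 33.8), Syngr2 (4.18 and 73) and Esyt2 (2.41 and 43.6), and those higher were Unc13d (20.8 and 2.97) and Stxbp2 (169 and 34.4). Unc13d rested on 54 counts in neuron and 9 in glia, and Stxbp2 on 353 and 129. In the brain regions against the non-neural libraries 1 was higher and 1 lower, where 13.5% and 1.33% of all tested genes were. Of 7 vesicular transmitter transporters 3 were among the genes tested between neuron and glia. All 3 were higher in neuron, where 10.4% of all tested genes were. Slc17a7, a vesicular glutamate transporter, was at 173 TPM in neuron and 0.64 in glia. Slc32a1, the transporter for GABA and glycine, was at 47.6 and 0, and Slc17a6 at 22.3 and 0. Of 12 proton pump genes, which energise filling of the vesicle, 1 was higher and 0 lower in neuron than in glia. Of all tested genes 10.4% were higher and 30.5% lower, so the 1 higher lies near the background. It was the brain subunit gene Atp6v1g2, at 298 TPM in neuron and 12.6 in glia.

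The counts over all genes depend on the scaling of the libraries. Of the genes called between neuron and glia 74.6% were lower in neuron with TPM, 51.6% with TMM factors and 60.6% with CPM. Between neuron and the brain regions the shares lower in neuron were 90.7%, 46.9% and 68.3%, and between the brain regions and the non-neural libraries the shares lower in the brain regions were 8.99%, 35.7% and 21.3%. Between glia and the fibroblasts the share lower in glia was 22.5% with TPM and 41.3% with TMM factors. The 39 genes had 26 to 31 higher in neuron than in glia and 27 to 33 higher in the brain regions than in the non-neural libraries over all 7 settings tried, and 0 lower in either under any of them.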

How the data were processed

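RNA was measured in 8 mouse libraries made from 1 ug of total RNA with the TruSeq RNA kit, per the labels' protocols. Bowtie, RSEM and mm10 are named in the submitters' processing notes; versions, annotation and strandedness are not given in those sources. Expected counts per gene were deposited by the authors, per the file headers, together with effective lengths. The authors also deposited TPM, which divides counts by effective length, per the file headers; 99.9% of 69875 values were rebuilt from counts and lengths to within 1%. Of the expected counts of the 39 genes 84% were whole, and all were rounded for intervals and thinning. Symbols and positions came from GENCODE M21 (GRCm38, mm10). No 2 libraries held identical values.

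Each group held 1 library, so no test was run. The 6 comparisons used the rule given with the results (10 TPM, 4-fold, 1 TPM added). Genes tested are those with at least 10 TPM in any library compared. Medians compare group means of log2(TPM + 1), for all genes over those with a mean of at least 10 TPM. A side at 0 counts was set at 3 counts per library for a fold. Full values were given for the first member of each role, both members of each of 9 pairs and members called against the main direction; others by value where called, and of each further list at most 4 genes with the largest ratios. Values of Itsn1, Syt17, Rimbp2, Erc2, Unc13d, Stxbp2 and some members outside that rule were chosen after they were seen. The members, lists and rules were chosen with earlier results of these data known. Alternatives were 0.1 or 5 TPM added, a floor of 1 TPM, TMM factors, TPM without 86 ribosomal protein genes, counts over the library total (CPM), counts thinned to 2146964 per library, and each library left out where a side held more than 1. The calling rule was checked on simulated counts with counting error alone and the effective lengths of 1 library. That check therefore does not cover differences of effective length between libraries or variation between replicates. Work was done in Python 3.11.15 (numpy 2.4.6, pandas 2.3.3, scipy 1.17.1, matplotlib 3.10.9) and R 4.3.3 (edgeR 4.0.16, for TMM factors alone).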

Additional observations from a re-analysis of the deposited data

How the results depend on the processing

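Over the 6 comparisons 102 of 110 recomputed counts of genes higher or lower stayed within 1.5 times the reported count, and 36 of 49 medians (genes minus all genes, log2) within 0.25 of the reported value. The exceptions follow, and the cause was not tested. Lower in neuron than in the brain regions were 4 genes with 5 TPM added, 1 with TMM factors, 3 with CPM, and 7 to 13 with a library left out. Higher in cerebellum were 1 to 2 with a library left out, higher in cortex than in hippocampus 0 with 5 TPM added, and higher in glia than in the fibroblasts 5 with a floor of 1 TPM and 3 to 6 with a library left out. The median for neuron with glia was 5.37 with 0.1 TPM added, 3.68 with 5 TPM added and 5.02 with CPM, against 4.61 reported. For brain regions against non-neural libraries it was 6.19, 3.68 and 5.56 under the same settings and 4.49 to 5.27 with a library left out, against 4.94. For glia with the fibroblasts it was 0.49 with 0.1 TPM added, -0.25 with 5 TPM added and 0.31 with TMM factors, against 0.02. With CPM, which has no length term, 7 ratios of related genes fell on the other side of 1: Cplx1 to Cplx2 at 0.573 in neuron and 0.54 in cerebellum, Sv2b to Sv2a at 1.09 in cortex, Rab3c to Rab3a at 1.49 in cortex and 1.28 in hippocampus, Unc13c to Unc13a at 1.06 in cerebellum, and Syngr3 to Syngr1 at 0.736 in neuron. Over CPM and thinning 33 more recomputed ratios left their counting intervals. No paired analysis was possible because each group held 1 library. The Doc2a values in cerebellum rested on 1 count.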
